A study of Mus musculus with 7 samples.

Results

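The genes that make a red cell were followed through 7 RNA sequencing libraries of mouse bone marrow. The set has 37 named genes: transcription factors, the receptors for erythropoietin and transferrin, the adult globins with their chaperone, the enzymes and mitochondrial carriers of heme synthesis, proteins of the red cell membrane, and 4 further erythroid genes. They were chosen by symbol, and 36 of the 37 were found among the 28987 genes of the deposited table. The gene not found, Ahsp (the alpha globin chaperone), was not analysed here.

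The libraries came from individual C57BL/6 mice. Hematopoietic stem and progenitor cells (HSC/P) were selected on CD117, the product of Kit, and the mutant clone was then sorted. Mutant Ly6G+ myeloid cells, a population made up mostly of neutrophils, were sorted from the marrow. In HSC/P there were 2 libraries with a RUNX1 mutation and overexpression of HMGA2 (RUNX1mut/HMGA2-OE) and 1 library with HMGA2 overexpression alone (HMGA2-OE), so all 3 HSC/P libraries carried HMGA2-OE. In Ly6G+ cells there was 1 library each of RUNX1mut/HMGA2-OE, RUNX1mut, HMGA2-OE and Control. The labels give neither the RUNX1 allele, nor the construct and promoter behind HMGA2-OE, nor the age of the mice. RUNX1 encodes a transcription factor that blood stem cells need, and HMGA2 an architectural chromatin protein. The comparisons ask what the mutation changes on top of HMGA2-OE in each cell type.

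Red cell formation is driven by GATA1 and KLF1, which bind together at globin, heme and membrane genes, while erythropoietin keeps the precursors alive through its receptor. Heme is built by a chain of enzymes that begins and ends in the mitochondrion, and it is joined to alpha and beta globin chains to give hemoglobin. In the marrow, these genes mark the erythroid and megakaryocyte-erythroid progenitors; mature neutrophils keep most of them low.

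Values are TPM, each gene's share of a library's transcripts after division by transcript length, so that levels of different genes can be set side by side. Read depth is unknown from TPM, and only the RUNX1mut/HMGA2-OE HSC/P group had more than 1 library, so each test rests on 1 residual degree of freedom. Kit and Ly6g separated the cell types. Kit ranged over 61.8 to 154.9 TPM in HSC/P but over 3.43 to 5.20 TPM among the Ly6G+ libraries. Ly6g ranged over 7.28 to 135.5 TPM in HSC/P but over 269.6 to 441.1 TPM among the Ly6G+ libraries. Within HSC/P, HMGA2-OE had the lowest Kit and the highest Ly6g, at 135.5 TPM, against 7.28 and 16.8 TPM in RUNX1mut/HMGA2-OE. The neutrophil gene S100a8 had 33940 TPM in HMGA2-OE HSC/P, above the 30620 TPM of RUNX1mut/HMGA2-OE Ly6G+ cells. In HSC/P, Hmga2 had 175.8 and 137.6 TPM with RUNX1mut/HMGA2-OE and 146.5 TPM with HMGA2-OE. Among the Ly6G+ libraries, Hmga2 had 12.1 TPM in RUNX1mut/HMGA2-OE and 3.72 TPM in HMGA2-OE, against 1.36 TPM in RUNX1mut and 1.45 TPM in Control. In HSC/P, Runx1 had 219 and 225 TPM with RUNX1mut/HMGA2-OE and 18.9 TPM with HMGA2-OE. Among the Ly6G+ libraries, Runx1 had 21.2 TPM in RUNX1mut/HMGA2-OE and 11.6 TPM in RUNX1mut, against 3.36 TPM in HMGA2-OE and 3.86 TPM in Control.

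The promoters of 6 members are printed first, because they show the letters that GATA and KLF factors recognise in genes whose values are given below. They were chosen after the values had been seen and cover a regulator (Klf1), a receptor (Epor), a membrane protein (Kel), the first enzyme of erythroid heme synthesis (Alas2) and the pair of adult beta globins. Each runs from 250 bases before to 50 bases after the annotated start in RefSeq (GRCm38.p6), 5′ to 3′ on the strand of the gene. Capitals mark matches on either strand to the GATA letters, which are AGATAA, or AGATAG, or TGATAA, or TGATAG, and to the KLF1 letters, which are CCACACCC, or CCACGCCC, or CCCCACCC, or CCCCGCCC. In Alas2, 2 of the 3 KLF1 matches overlap.
Klf1 promoter, chr8:84901732-84902031, plus strand: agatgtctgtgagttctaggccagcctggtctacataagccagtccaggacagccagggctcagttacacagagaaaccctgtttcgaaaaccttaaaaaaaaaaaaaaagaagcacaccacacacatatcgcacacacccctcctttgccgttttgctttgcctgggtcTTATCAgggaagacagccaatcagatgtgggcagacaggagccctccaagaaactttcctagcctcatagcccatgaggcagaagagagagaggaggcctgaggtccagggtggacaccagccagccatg
Epor promoter, chr9:21963527-21963826, minus strand: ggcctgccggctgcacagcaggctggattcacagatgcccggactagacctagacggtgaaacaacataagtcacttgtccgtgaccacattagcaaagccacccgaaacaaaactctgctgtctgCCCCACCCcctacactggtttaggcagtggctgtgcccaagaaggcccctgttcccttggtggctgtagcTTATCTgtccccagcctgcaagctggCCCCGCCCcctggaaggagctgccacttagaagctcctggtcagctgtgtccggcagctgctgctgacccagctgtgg
Kel promoter, chr6:41704276-41704575, minus strand: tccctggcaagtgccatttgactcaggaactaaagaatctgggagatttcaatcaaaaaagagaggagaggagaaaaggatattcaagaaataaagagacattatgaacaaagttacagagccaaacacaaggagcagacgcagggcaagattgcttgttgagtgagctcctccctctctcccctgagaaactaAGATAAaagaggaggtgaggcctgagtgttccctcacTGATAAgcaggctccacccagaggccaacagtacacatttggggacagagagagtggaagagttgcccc
Alas2 promoter, chrX:150547167-150547466, plus strand: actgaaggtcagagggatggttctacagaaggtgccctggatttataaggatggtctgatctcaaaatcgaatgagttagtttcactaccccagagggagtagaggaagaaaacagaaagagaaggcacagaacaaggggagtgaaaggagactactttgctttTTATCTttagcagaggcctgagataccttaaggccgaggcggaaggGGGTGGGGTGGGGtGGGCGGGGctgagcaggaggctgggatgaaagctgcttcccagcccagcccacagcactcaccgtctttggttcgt
Hbb-bs promoter, chr7:103827879-103828178, minus strand: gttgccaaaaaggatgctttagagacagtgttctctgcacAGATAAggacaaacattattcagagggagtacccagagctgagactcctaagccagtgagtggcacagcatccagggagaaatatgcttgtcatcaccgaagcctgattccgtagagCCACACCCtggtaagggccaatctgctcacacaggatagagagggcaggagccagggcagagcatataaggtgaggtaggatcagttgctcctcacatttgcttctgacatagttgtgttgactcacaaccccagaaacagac
Hbb-bt promoter, chr7:103813874-103814173, minus strand: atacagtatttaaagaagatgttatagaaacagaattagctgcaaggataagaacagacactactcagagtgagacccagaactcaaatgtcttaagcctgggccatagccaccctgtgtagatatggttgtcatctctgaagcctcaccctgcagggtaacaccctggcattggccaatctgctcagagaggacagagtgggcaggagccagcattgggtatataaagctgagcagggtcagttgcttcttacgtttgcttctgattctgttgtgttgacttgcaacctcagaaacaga

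Of these, Klf1 and Kel hold GATA letters only, and Epor, Alas2 and Hbb-bs hold both kinds. The Hbb-bt window holds neither. Shifted by 1 base, the 2 beta globin windows were identical at 168 of 299 positions (56.2%). Those of Hba-a1 and Hba-a2, which are not printed, were identical at 297 of 297 positions when shifted by 3 bases. A RefSeq promoter was at hand for 29 of the 36 members. GATA letters were in 18 of the 29 (62.1%), against 30.2% of 27025 promoters of the same length. KLF1 letters were in 14 (48.3%), against 30% of all. Both kinds were in 7 (24.1%), against 5.47% of all. The letters TGTGGT or TGCGGT, bound by RUNX factors, were in 8 (27.6%), against 22.5% of all. A match describes the letters of a window and not a bound site.

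**Figure D1:**
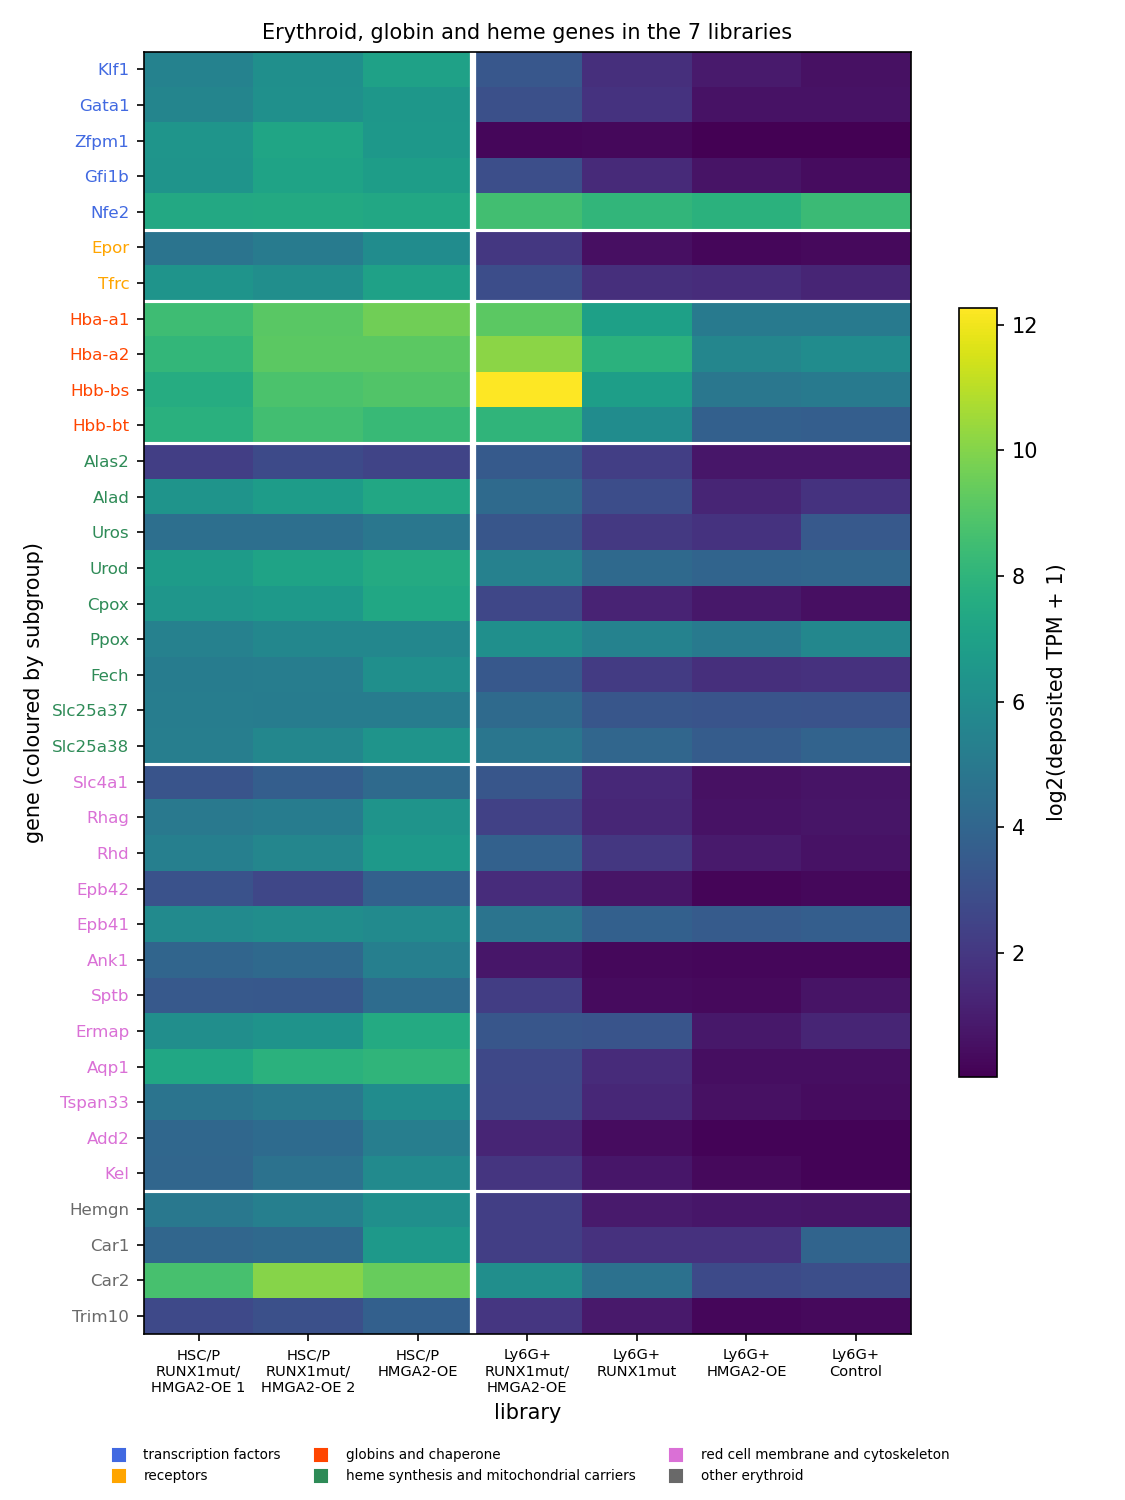
Level of the 36 members (rows, grouped by role) in the 7 libraries (columns), as log2(deposited TPM + 1). HSC/P libraries, on the left, hold every member at 3.92 TPM or more. In Ly6G+ cells the colours darken from RUNX1mut/HMGA2-OE to HMGA2-OE and Control, and the brightest cell is Hbb-bs in RUNX1mut/HMGA2-OE, at 4934 TPM.

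The members were abundant in HSC/P and unevenly present in Ly6G+ cells. All 36 reached 1 TPM in each HSC/P library, with medians of 39.5 and 50.2 TPM in RUNX1mut/HMGA2-OE and 85.3 TPM in HMGA2-OE. In Ly6G+ cells 34 reached 1 TPM in RUNX1mut/HMGA2-OE, 27 in RUNX1mut, 16 in HMGA2-OE and 17 in Control. The median was 8.70 TPM in RUNX1mut/HMGA2-OE, 2.45 TPM in RUNX1mut, 0.798 TPM in HMGA2-OE and 0.657 TPM in Control. Scaling between the 4 libraries narrowed this to 5.52 TPM in RUNX1mut/HMGA2-OE, 2.40 TPM in RUNX1mut, 1.16 TPM in HMGA2-OE and 0.729 TPM in Control, with 33, 27, 21 and 17 members at 1 scaled TPM or more in the same order of libraries. The Ly6G+ levels given gene by gene below are as deposited, with scaling factors of 1.58 for RUNX1mut/HMGA2-OE and 0.690 for HMGA2-OE, while every fitted term uses scaled values. As these are bulk samples, fewer cells of a type and less RNA per cell cannot be told apart.

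In HSC/P, 35 of the 36 members were lower in RUNX1mut/HMGA2-OE than in HMGA2-OE and 1, Zfpm1, was higher. The median difference was -0.98 on the log2(scaled TPM + 1) scale, against -0.019 over all 12226 genes tested. None passed the test: limma called 0 of 12226 genes in either direction at an adjusted p of 0.05 (0% as background), and 1908 genes, 23 of them members and all 23 lower, had an unadjusted p under 0.05. Both RUNX1mut/HMGA2-OE libraries lay below HMGA2-OE for 31 members, a pattern that 41.0% of all tested genes had. A fitted difference of at least 2-fold lower was found for 16 members, against 3.57% of all tested genes. The median fitted difference was -1.26 over the 12 membrane genes, -0.80 over the 4 globins, -0.75 over the 9 heme genes and -0.27 over the 5 transcription factors. These subgroup medians were not tested against each other, and single genes overlapped between subgroups.

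**Figure D2:**
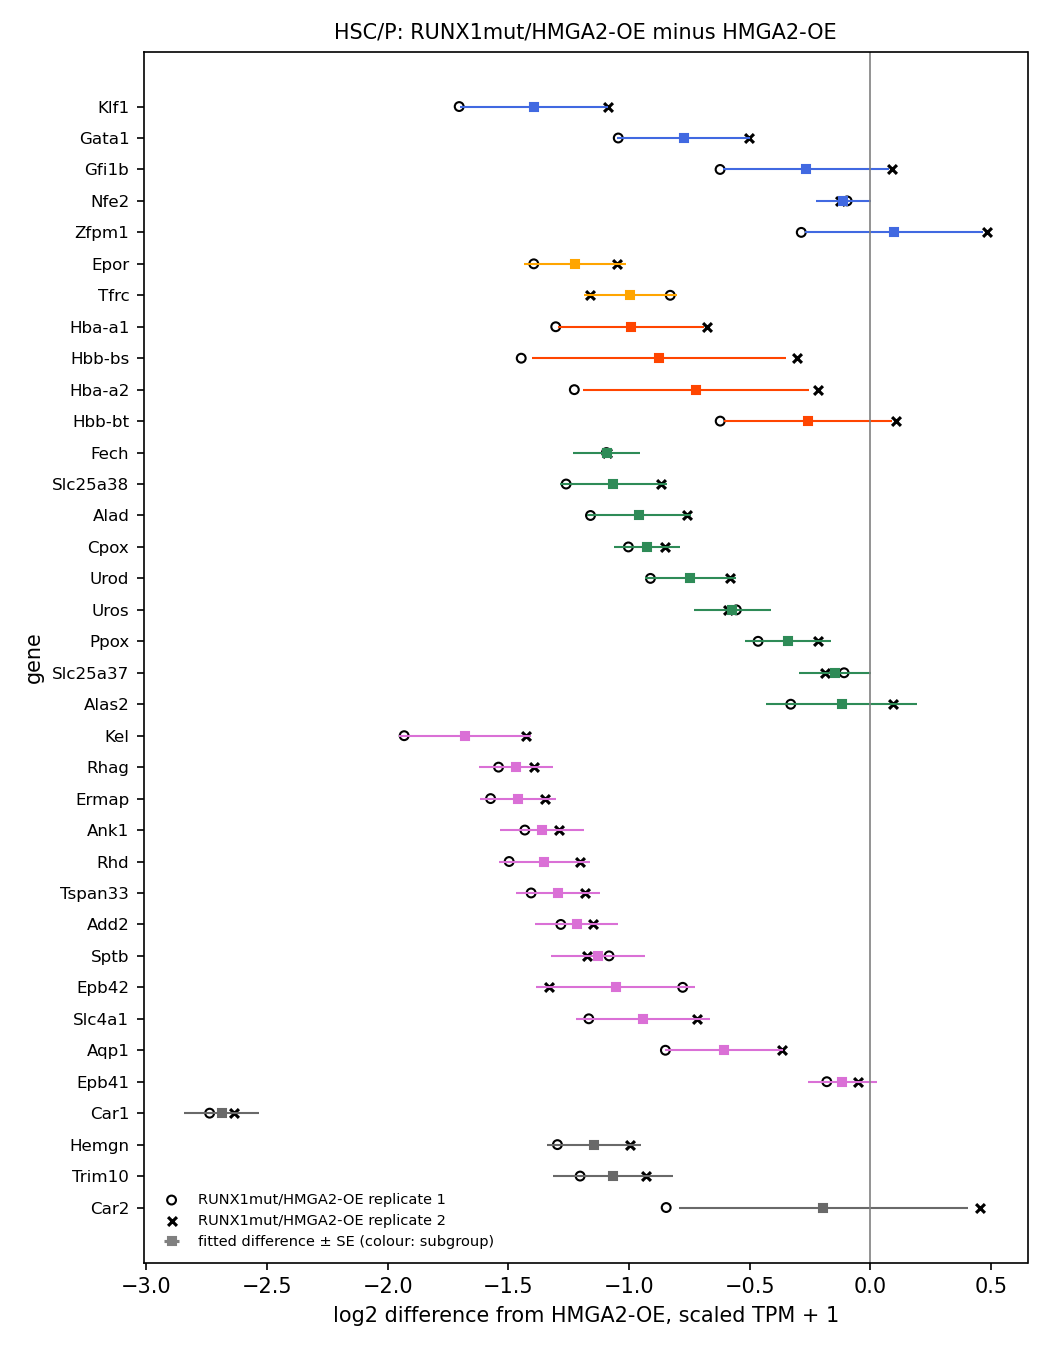
Log2 difference from the HMGA2-OE library for each RUNX1mut/HMGA2-OE HSC/P library (circles and crosses) and as fitted, with its standard error (squares), for 36 members sorted within subgroups. Most points lie left of 0, with Car1 at the far left at -2.69. For Zfpm1, Gfi1b, Hbb-bt, Alas2 and Car2 the replicates lie on both sides of 0.

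Among the transcription factors, Klf1, the activator of beta globin and of many red cell genes, had 43.3 and 69.3 TPM in RUNX1mut/HMGA2-OE HSC/P, against 129.8 TPM in HMGA2-OE. Both mutant libraries were below, and the fitted difference was -1.40 ± 0.31 (SE; limma adjusted p = 0.21). Gata1, the master regulator of erythroid and megakaryocytic genes, had 47.5 and 72.0 TPM in RUNX1mut/HMGA2-OE and 89.7 TPM in HMGA2-OE. That difference, -0.77 ± 0.28 (SE), is smaller than for Klf1, though the groups did not overlap either. Zfpm1, the GATA1 cofactor FOG1, had 83.0 and 147 TPM in RUNX1mut/HMGA2-OE and 91.8 TPM in HMGA2-OE, so its replicates fell on both sides. Gfi1b, a repressor in erythroid and megakaryocytic cells, did the same, with 80.3 and 137 TPM in RUNX1mut/HMGA2-OE and 112 TPM in HMGA2-OE. Nfe2, a subunit of a factor that acts at globin genes and in platelet formation, was nearly level, with 171 and 173 TPM in RUNX1mut/HMGA2-OE and 166 TPM in HMGA2-OE. After scaling its fitted difference was -0.11 ± 0.11 (SE), and without scaling it was 0.06.

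Both receptors were lower. Epor, the erythropoietin receptor, had 25.7 and 34.0 TPM in RUNX1mut/HMGA2-OE HSC/P and 62.7 TPM in HMGA2-OE, with a fitted difference of -1.22 ± 0.21 (SE; limma adjusted p = 0.17). Tfrc, the transferrin receptor that brings iron into the cell, had 80.1 and 65.7 TPM in RUNX1mut/HMGA2-OE and 129.5 TPM in HMGA2-OE. Neither receptor's groups overlapped, and the replicates were closer to each other than to HMGA2-OE.

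The globin replicates lay far apart. The alpha globin Hba-a1 had 350.5 and 560.0 TPM in RUNX1mut/HMGA2-OE HSC/P and 784 TPM in HMGA2-OE. Its near copy Hba-a2 had 277 and 578 TPM in RUNX1mut/HMGA2-OE and 588 TPM in HMGA2-OE. In both, replicate 1 was far below HMGA2-OE and replicate 2 in between. Beta globin Hbb-bs had 196 and 449 TPM in RUNX1mut/HMGA2-OE and 485 TPM in HMGA2-OE. Hbb-bt, its partner in the beta globin cluster, had 221 and 378 TPM in RUNX1mut/HMGA2-OE and 308 TPM in HMGA2-OE, with the replicates on both sides. The 4 fitted differences ran between -0.99 and -0.26. The sum of the 4 globins was 1044 and 1964 TPM in RUNX1mut/HMGA2-OE and 2166 TPM in HMGA2-OE. Hba-a1 and Hba-a2 share 477 of their 31-base stretches (71.3% of those of Hba-a1 and 91.0% of those of Hba-a2), and Hbb-bs and Hbb-bt share 400 (58.7% and 59.4%), so the split within each pair is uncertain. Embryonic globins were nearly absent, as Hbb-bh1 and Hba-x were listed at 0 in all 7 libraries and Hbb-y did not exceed 0.507 TPM.

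All 9 genes of heme synthesis and transport were lower by the fit. Of the 9, 6 had an unadjusted limma p under 0.05, against 1908 of all 12226 genes in either direction. Alad, the enzyme of the second step, had 81.4 and 111 TPM in RUNX1mut/HMGA2-OE HSC/P and 165.7 TPM in HMGA2-OE. Cpox, coproporphyrinogen oxidase, had 86.8 and 99.9 TPM in RUNX1mut/HMGA2-OE and 158 TPM in HMGA2-OE. Fech, ferrochelatase, which inserts the iron, had 34.4 and 35.6 TPM in RUNX1mut/HMGA2-OE and 67.5 TPM in HMGA2-OE. For these 3 enzymes both mutant libraries were well below, and the fitted differences were -0.96 ± 0.22 for Alad, -0.93 ± 0.14 for Cpox and -1.09 ± 0.14 for Fech (SE; limma adjusted p = 0.21, 0.15 and 0.14 in that order). Slc25a38, the glycine carrier that supplies the first step, had 36.7 and 50.2 TPM in RUNX1mut/HMGA2-OE and 81.0 TPM in HMGA2-OE. Urod, which decarboxylates uroporphyrinogen, had 106 and 138 TPM in RUNX1mut/HMGA2-OE and 182 TPM in HMGA2-OE. Both were in the same order as the enzymes above. Uros, uroporphyrinogen III synthase, had 21.2 and 21.4 TPM in RUNX1mut/HMGA2-OE and 28.6 TPM in HMGA2-OE. Ppox, which makes protoporphyrin, was closer, at 40.7 and 50.3 TPM in RUNX1mut/HMGA2-OE and 51.2 TPM in HMGA2-OE. Alas2, the erythroid form of the first enzyme, stood apart from the rest by its low level: it had 3.92 and 5.80 TPM in RUNX1mut/HMGA2-OE and 4.70 TPM in HMGA2-OE, with the replicates on both sides. Slc25a37, mitoferrin 1, which carries iron into the mitochondrion, was level, at 35.9 and 35.1 TPM in RUNX1mut/HMGA2-OE and 35.1 TPM in HMGA2-OE.

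Alas1, the form of the first enzyme used by most tissues, is not a member and had 276 and 146 TPM in RUNX1mut/HMGA2-OE HSC/P and 345 TPM in HMGA2-OE. Alas1 exceeded Alas2 by 70.5 and 25.2 times in RUNX1mut/HMGA2-OE and by 73.5 times in HMGA2-OE, while Alad, Urod and Cpox were between 81.4 and 182 TPM in these libraries.

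**Figure D3:**
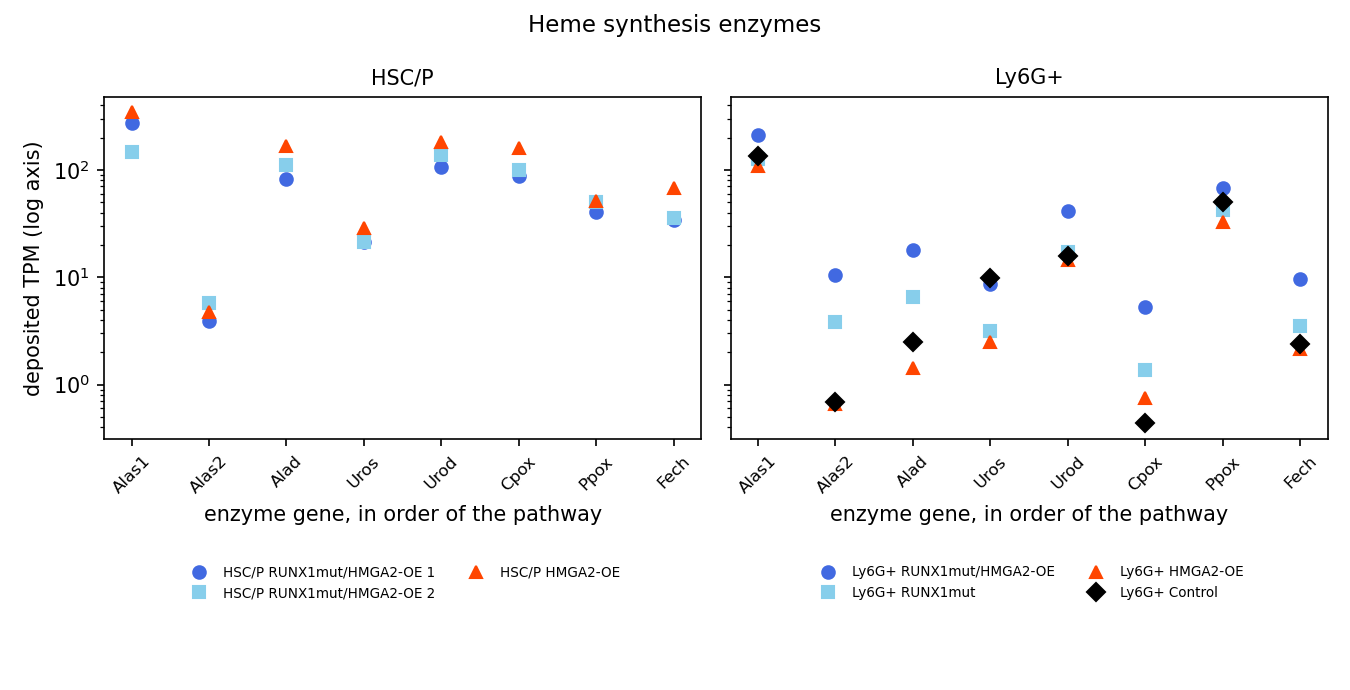
Deposited TPM (log axis) of 8 heme synthesis enzyme genes, in pathway order (Alas1 and Alas2 encode forms of the same step), in the 3 HSC/P libraries (left) and the 4 Ly6G+ libraries (right). In HSC/P the HMGA2-OE triangle lies above both RUNX1mut/HMGA2-OE points for every gene except Alas2. In Ly6G+ cells the RUNX1mut/HMGA2-OE circle is highest for every gene except Uros, which is highest in Control on this unscaled axis.

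The red cell membrane genes were lower throughout: 12 of 12 by the fit, with a median of -1.26. Of the 12, 10 had an unadjusted limma p under 0.05, against 1908 of all 12226 genes in either direction. Kel, the Kell blood group protein, had 15.9 and 23.8 TPM in RUNX1mut/HMGA2-OE HSC/P and 57.7 TPM in HMGA2-OE, a fitted difference of -1.68 ± 0.28 (SE; limma adjusted p = 0.17). Rhag, the Rh-associated glycoprotein, had 29.9 and 34.3 TPM in RUNX1mut/HMGA2-OE and 80.5 TPM in HMGA2-OE, a difference of -1.47 ± 0.15 (SE; limma adjusted p = 0.12). Its partner Rhd had 38.2 and 48.7 TPM in RUNX1mut/HMGA2-OE and 99.3 TPM in HMGA2-OE. In all 3 blood group genes HMGA2-OE was more than 2-fold above both replicates, which were closer together for Rhag and Rhd than for Kel. Ermap, an erythroblast membrane protein, had 65.7 and 79.6 TPM in RUNX1mut/HMGA2-OE and 179 TPM in HMGA2-OE. Ank1, the ankyrin that ties the membrane to the spectrin skeleton, had 14.9 and 17.1 TPM in RUNX1mut/HMGA2-OE and 38.0 TPM in HMGA2-OE. Sptb, erythroid beta spectrin, had 9.70 and 9.34 TPM in RUNX1mut/HMGA2-OE and 19.6 TPM in HMGA2-OE. Skeleton genes thus had the order of the blood group genes. Add2, beta adducin, and Tspan33, a tetraspanin of erythroid progenitors, differed by -1.22 ± 0.17 and -1.29 ± 0.18 (SE). Epb42, protein 4.2, and Slc4a1, the band 3 anion exchanger, differed by -1.05 ± 0.33 and -0.94 ± 0.28 (SE). Aqp1, the water channel, had 159 and 230.3 TPM in RUNX1mut/HMGA2-OE and 259.7 TPM in HMGA2-OE, a smaller difference of -0.61 ± 0.25 (SE). Epb41, protein 4.1, was at -0.12 ± 0.14 (SE), and its replicates straddled HMGA2-OE before scaling, with 57.1 and 64.7 TPM in RUNX1mut/HMGA2-OE and 58.7 TPM in HMGA2-OE.

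Of the remaining 4 genes, Car1, carbonic anhydrase 1 of red cells, had the largest difference of all members. It had 15.8 and 17.6 TPM in RUNX1mut/HMGA2-OE HSC/P and 100.6 TPM in HMGA2-OE, a fitted difference of -2.69 ± 0.16 (SE; limma unadjusted p = 0.00013, adjusted p = 0.11). Car2, a second carbonic anhydrase that osteoclasts and stomach also use, had 416 and 1061 TPM in RUNX1mut/HMGA2-OE and 677 TPM in HMGA2-OE. The 2 anhydrases thus differed: Car1 did not overlap, and the Car2 replicates lay 2.46-fold apart after scaling, on either side of HMGA2-OE. Hemgn, a nuclear protein of erythroid cells, had 29.7 and 38.1 TPM in RUNX1mut/HMGA2-OE and 67.5 TPM in HMGA2-OE. Trim10, an erythroid ubiquitin ligase, had 5.50 and 7.09 TPM in RUNX1mut/HMGA2-OE and 12.7 TPM in HMGA2-OE. Both were near a 2-fold difference, at -1.15 ± 0.19 for Hemgn and -1.07 ± 0.25 for Trim10 (SE).

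The 2 RUNX1mut/HMGA2-OE HSC/P libraries also differed from each other in a common direction. Replicate 2 was above replicate 1 for 30 of the 36 members, against 50.0% of all tested genes. Leaving out replicate 1 gave a median of -0.77, and leaving out replicate 2 gave -1.11. Tfrc, Epb42 and Sptb were among the 6 that were not higher in replicate 2.

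Genes of the same pathways that are not members gave the following in HSC/P, where 1908 of all 12226 genes had an unadjusted limma p under 0.05. Among 24 tested genes of heme and iron handling, 22 were lower in RUNX1mut/HMGA2-OE, 2 were higher (Hmox2 and Bach1, at 0.07 and 0.27), 0 passed the limma test and 12 had an unadjusted p under 0.05. Slc40a1, the iron exporter ferroportin, was at -1.25 ± 0.16 (SE). Its most abundant genes, the ferritins Ftl1 and Fth1, were at -0.46 and -0.31, and Alas1 and Tmem14c were at -0.95 and -0.43. Among 25 other red cell and membrane genes, 16 were lower and 9 higher, with 0 passing and 11 with an unadjusted p under 0.05. Dmtn, dematin, was at -1.43 ± 0.29, while Cited2, a transcriptional coregulator, was at 1.10 ± 0.19 and Tmcc2 at 1.08 ± 0.21 (SE). The 4 most abundant of that list, Cd47, Add1, Bnip3l and Prdx2, lay between -0.57 and 0.05.

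The regulators outside the set were split, 7 higher and 7 lower, with 0 passing and 7 with an unadjusted p under 0.05. Gata2, the GATA factor of stem cells and early progenitors, had 81.8 and 118 TPM in RUNX1mut/HMGA2-OE HSC/P and 33.6 TPM in HMGA2-OE, a fitted difference of 1.35 ± 0.25 (SE; limma adjusted p = 0.19). The ratio of Gata2 to Gata1 was 1.72 and 1.63 in RUNX1mut/HMGA2-OE and 0.375 in HMGA2-OE. Lyl1, a relative of Tal1, was at 0.76 ± 0.24, while E2f2, a cell cycle regulator, and Klf3, a repressor of the KLF family, were at -0.81 ± 0.18 and -0.81 ± 0.16 (SE). Spi1, Lmo2, Ldb1 and Ikzf1, the most abundant, lay between -0.74 and 0.12. Of 15 genes of erythropoietin receptor signalling, 11 were higher and 4 lower, with 0 passing and 4 with an unadjusted p under 0.05. Socs3, a feedback inhibitor, and Bcl2l1, which encodes the survival protein BCL-XL, were at 2.09 ± 0.44 and 1.16 ± 0.38 (SE), and Kit was at 1.04 ± 0.17 (SE). Ptpn6 and Sh2b3, both negative regulators, were at -0.38 and -0.29, and Lyn and Pim1 at 0.25 and 0.32.

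Markers of other cells moved with the HSC/P comparison. The 14 neutrophil markers summed to 25470 and 22790 TPM in RUNX1mut/HMGA2-OE and 69480 TPM in HMGA2-OE, and 13 of the 14 were lower. The 14 megakaryocyte and platelet markers summed to 1059 and 2778 TPM in RUNX1mut/HMGA2-OE and 495 TPM in HMGA2-OE, where 1 of them was at 0, and all 13 tested were higher. The 10 stem and progenitor markers summed to 718 and 653 TPM in RUNX1mut/HMGA2-OE and 362.5 TPM in HMGA2-OE. Cd34 had 239.5 and 157 TPM in RUNX1mut/HMGA2-OE and 35.8 TPM in HMGA2-OE, and Kit, Meis1, Erg, Gata2 and Hlf were also higher in both replicates. Mecom went the other way, with 2.07 and 5.27 TPM in RUNX1mut/HMGA2-OE and 131.8 TPM in HMGA2-OE. So did Ly6a, with 20.7 and 9.74 TPM in RUNX1mut/HMGA2-OE and 31.2 TPM in HMGA2-OE. For Flt3 and Hoxa9 the deposited values of the replicates lay on both sides of HMGA2-OE. Lists on the same side as the erythroid genes were proliferation, with 10 of 10 lower (median -0.40, 4 at an unadjusted p under 0.05), and macrophage markers, with 9 of 10 lower (median -0.41, 2 at an unadjusted p under 0.05). The part of these other cells in the lower erythroid values was not tested.

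In Ly6G+ cells the order of genotypes was the other way. Of the 27 members with at least 1 TPM in at least 2 Ly6G+ libraries, 22 were higher with the RUNX1 mutation. This is from an additive fit of mutation and HMGA2-OE to the 4 libraries. With 1 library per genotype, the fit counts any interaction of mutation and HMGA2-OE as error, so its standard errors do not come from replicates. The median RUNX1 term was 1.27 on the log2(scaled TPM + 1) scale, against 0.0072 over all 9820 genes. None passed, as limma called 0 of 9820 genes (0% as background), with 1407 genes and 16 members (15 higher, 1 lower) at an unadjusted p under 0.05. Both mutant libraries were above both others for 18 of the 27 members, against 26.1% of all tested genes, and 15 members were at least 2-fold higher, against 3.87% of all. Members low in cells without the mutation enter this count through the mutant libraries. Only 17 members reached 1 TPM in HMGA2-OE or Control, and their median term was 0.36, with 12 higher and 7 at least 2-fold higher. With no filter, both mutant libraries were above both others for 24 of 36 members, against 21.0% of 21434 genes.

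**Figure D4:**
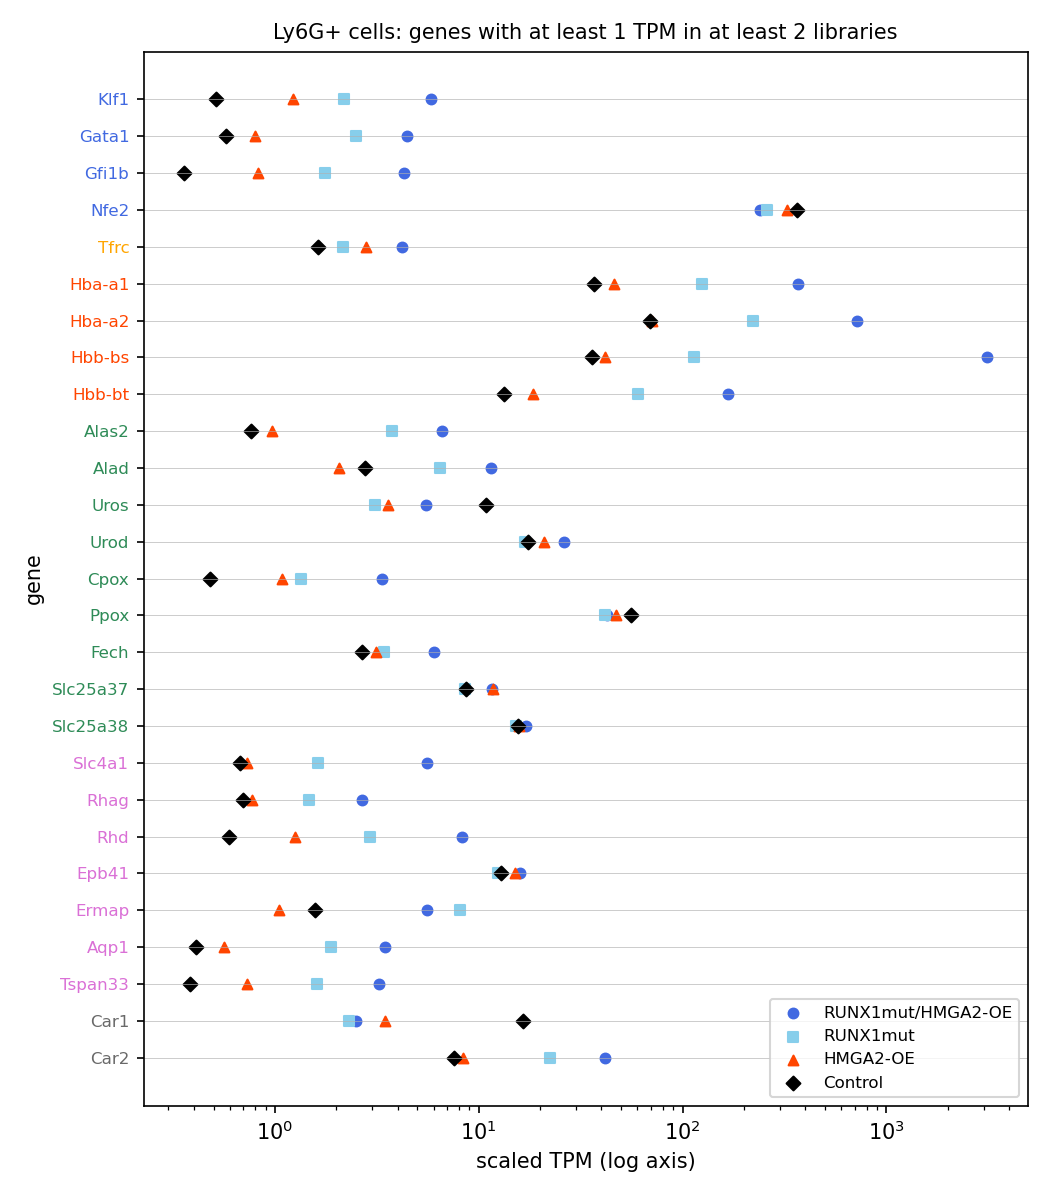
Scaled TPM (log axis) of the 27 members tested in Ly6G+ cells, by library. RUNX1mut/HMGA2-OE circles and RUNX1mut squares lie right of the HMGA2-OE triangles and Control diamonds for the globins and most membrane genes. Among the heme genes they do so only for Alas2, Alad, Cpox and Fech. Nfe2, Ppox, Uros and Car1 are among those that do not. Members under 1 TPM in both HMGA2-OE and Control are shown only because both mutant libraries reached 1 TPM.

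Hbb-bs, Hba-a2 and Hba-a1 were the highest members in the Ly6G+ library of RUNX1mut/HMGA2-OE, whereas Nfe2 was the highest in the other 3. Hbb-bs had 4934 TPM in RUNX1mut/HMGA2-OE and 116 TPM in RUNX1mut, against 28.8 TPM in HMGA2-OE and 32.4 TPM in Control. Hba-a2 had 1129 TPM in RUNX1mut/HMGA2-OE and 225 TPM in RUNX1mut, against 48.6 TPM in HMGA2-OE and 62.4 TPM in Control. Hba-a1 had 584 TPM in RUNX1mut/HMGA2-OE and 127 TPM in RUNX1mut, against 31.8 TPM in HMGA2-OE and 33.0 TPM in Control. All 3 had the same order, and HMGA2-OE and Control were close to each other. Hbb-bt had 265 TPM in RUNX1mut/HMGA2-OE and 61.6 TPM in RUNX1mut, against 12.8 TPM in HMGA2-OE and 12.0 TPM in Control. Between RUNX1mut/HMGA2-OE and HMGA2-OE the scaled fold (with 1 TPM added) was 73.2 for Hbb-bs, 10.03 for Hba-a2, 8.66 for Hbb-bt and 7.90 for Hba-a1. Within the beta pair, whose split is uncertain, Hbb-bs was assigned most of the excess in RUNX1mut/HMGA2-OE. The ratio of Hbb-bs to Hbb-bt was 18.6 there, against 1.89 in RUNX1mut, 2.25 in HMGA2-OE and 2.70 in Control. In HSC/P that ratio was 0.889 and 1.19 in RUNX1mut/HMGA2-OE and 1.58 in HMGA2-OE. In the Ly6G+ library of RUNX1mut/HMGA2-OE, beta globins summed to 3.03 times alpha globins, and in the other 6 libraries to between 0.465 and 0.727 times.

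Add1, alpha adducin, which is not a member, also stood out in that library, at 642 TPM, against 82.0 TPM in RUNX1mut, 60.8 TPM in HMGA2-OE and 82.9 TPM in Control. It is the second most abundant gene of its list over the 7 libraries. In HSC/P it was level, at 103 and 120.0 TPM in RUNX1mut/HMGA2-OE and 95.8 TPM in HMGA2-OE. Add1 has annotated transcripts of 407 and 412 bases and Hbb-bs a coding transcript of 407 bases, while that of Hbb-bt has 703 bases. Of the 36 members, 15 have a transcript of 350 to 420 bases. Whether transcript length had a part in these values was not tested.

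The regulators were low in Ly6G+ cells and followed the same order. Klf1 had 9.15 TPM in RUNX1mut/HMGA2-OE and 2.22 TPM in RUNX1mut, against 0.851 TPM in HMGA2-OE and 0.464 TPM in Control. Gata1 had 7.04 TPM in RUNX1mut/HMGA2-OE and 2.55 TPM in RUNX1mut, against 0.553 TPM in HMGA2-OE and 0.517 TPM in Control. Gfi1b had 6.77 TPM in RUNX1mut/HMGA2-OE and 1.79 TPM in RUNX1mut, against 0.571 TPM in HMGA2-OE and 0.323 TPM in Control. All 3 were under 1 TPM in both libraries without the mutation, so they were tested only through the mutant libraries. Being higher there was thus a condition of the test. For these 3 regulators the RUNX1 term was 1.34 ± 0.22, 1.38 ± 0.20 and 1.28 ± 0.22 (SE; limma adjusted p = 0.33 for each). Zfpm1 was under 0.2 TPM in all 4 libraries, although Gata1, its partner, was detected. Nfe2 was the exception by level and by order: it had 379 TPM in RUNX1mut/HMGA2-OE and 266 TPM in RUNX1mut, against 225 TPM in HMGA2-OE and 329 TPM in Control, and after scaling both mutant libraries were below both others (-0.46 ± 0.10, SE). Epor had 2.96 TPM in RUNX1mut/HMGA2-OE and 0.437 TPM in RUNX1mut, against 0.174 TPM in HMGA2-OE and 0.272 TPM in Control. Tfrc had 4.19 scaled TPM in RUNX1mut/HMGA2-OE and 2.16 in RUNX1mut, against 2.79 in HMGA2-OE and 1.62 in Control, so its mutant libraries lay on both sides of HMGA2-OE.

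Heme genes separated into those that followed the order and those that did not. Alas2 had 10.4 TPM in RUNX1mut/HMGA2-OE and 3.84 TPM in RUNX1mut, against 0.666 TPM in HMGA2-OE and 0.687 TPM in Control, so the RUNX1mut/HMGA2-OE Ly6G+ library held more Alas2 than any HSC/P library. Alad had 18.1 TPM in RUNX1mut/HMGA2-OE and 6.60 TPM in RUNX1mut, against 1.43 TPM in HMGA2-OE and 2.50 TPM in Control. Their RUNX1 terms were 1.69 ± 0.21 and 1.51 ± 0.34 (SE; limma adjusted p = 0.33 for each), and neither pair of groups overlapped. Cpox had 5.27 TPM in RUNX1mut/HMGA2-OE and 1.37 TPM in RUNX1mut, against 0.745 TPM in HMGA2-OE and 0.435 TPM in Control. Alas2 and Cpox were under 1 TPM in both libraries without the mutation, so they too were tested only through the mutant libraries. The terms of Urod, Slc25a37 and Slc25a38 lay between -0.01 and 0.13, and that of Ppox was -0.28 ± 0.13 (SE). Uros was highest in Control, at 9.81 TPM, against 8.66 TPM in RUNX1mut/HMGA2-OE, 3.16 TPM in RUNX1mut and 2.47 TPM in HMGA2-OE.

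Of the 7 membrane genes tested in Ly6G+ cells, 6 had both mutant libraries above both others, against 26.1% of all tested genes. Epb41 did not, and 0 passed the test. Slc4a1, Rhag, Rhd, Aqp1 and Tspan33 were under 1 TPM in both HMGA2-OE and Control and were tested only through the mutant libraries. Their order in deposited values was thus set by the filter, and only Ermap and Epb41 were free of this. Ermap had 8.74 TPM in RUNX1mut/HMGA2-OE and 8.25 TPM in RUNX1mut, against 0.724 TPM in HMGA2-OE and 1.41 TPM in Control. It was the 1 tested member with both mutant libraries above both others that was not highest in RUNX1mut/HMGA2-OE after scaling. Rhd had 13.0 TPM in RUNX1mut/HMGA2-OE and 2.97 TPM in RUNX1mut, against 0.866 TPM in HMGA2-OE and 0.535 TPM in Control. Slc4a1 had 8.74 TPM in RUNX1mut/HMGA2-OE and 1.65 TPM in RUNX1mut, against 0.506 TPM in HMGA2-OE and 0.605 TPM in Control. Rhd and Slc4a1 kept the common order, with terms of 1.67 ± 0.26 and 1.28 ± 0.41 (SE). Aqp1, Tspan33 and Rhag had terms of 1.27, 1.10 and 0.79, and Epb41 of 0.02, which turned to -0.015 with no filter. Epb42, Ank1, Sptb, Add2 and Kel, with Epor, Zfpm1, Hemgn and Trim10, stayed under 1 TPM in at least 3 of the 4 libraries and were not tested. Car2 had 65.9 TPM in RUNX1mut/HMGA2-OE and 22.7 TPM in RUNX1mut, against 5.76 TPM in HMGA2-OE and 6.78 TPM in Control. Car1 again parted from Car2, with 3.94 TPM in RUNX1mut/HMGA2-OE, 2.35 TPM in RUNX1mut and 2.40 TPM in HMGA2-OE, against 14.9 TPM in Control.

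The HMGA2-OE term in Ly6G+ cells had a median of 0.42, with 22 of 27 members higher and 0 passing the limma test. At an unadjusted p under 0.05 were 4, against 639 of all 9820 genes in either direction. Only 1, Hbb-bs, was at least 2-fold higher, against 2.22% of all tested genes. In single pairs of libraries, 17 members were at least 2-fold higher in RUNX1mut/HMGA2-OE than in Control (6.66% of all genes) and 12 in RUNX1mut than in Control (5.36% of all). In RUNX1mut/HMGA2-OE against HMGA2-OE the count was 17 (4.93% of all). Of the pairs that differ by HMGA2-OE, 7 members were at least 2-fold higher in RUNX1mut/HMGA2-OE than in RUNX1mut (3.97% of all) and 0 in HMGA2-OE than in Control (3.27% of all). The difference between the RUNX1 and HMGA2-OE terms was not tested. These pairs have no replicate, and some share a library. Members under 1 TPM in both HMGA2-OE and Control were counted only because both mutant libraries reached 1 TPM. That filter favours the counts of a mutant library over HMGA2-OE or Control, and not the count of HMGA2-OE over Control.

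Other markers differed in the same libraries. The neutrophil protein gene S100a8 was at 30620 TPM in RUNX1mut/HMGA2-OE and 398600 TPM in RUNX1mut, against 546300 TPM in HMGA2-OE and 439300 TPM in Control. The 14 neutrophil markers summed to 308800 TPM in RUNX1mut/HMGA2-OE and 566200 TPM in RUNX1mut, against 678300 TPM in HMGA2-OE and 605400 TPM in Control. In these unscaled sums S100a8 carried that order. The other 13 summed to 278200 TPM in RUNX1mut/HMGA2-OE and 167700 TPM in RUNX1mut, against 132100 TPM in HMGA2-OE and 166100 TPM in Control. After scaling, Ly6g had 280 TPM in RUNX1mut/HMGA2-OE and 334 TPM in RUNX1mut, against 391 TPM in HMGA2-OE and 460 TPM in Control. S100a8, S100a9, Ltf, Lcn2, Camp, Ngp, Mmp8 and Mmp9 likewise had both mutant libraries below both others. Retnlg, Elane, Mpo and Prtn3 had both above both others, and Cxcr2 had neither order. Unscaled values raised the median RUNX1 term of all genes to 0.58 and that of the members to 1.66. Megakaryocyte and platelet markers summed to 84.7 TPM in RUNX1mut/HMGA2-OE and 58.4 TPM in RUNX1mut, against 12.4 TPM in HMGA2-OE and 18.9 TPM in Control, where 4 of the 14 were at 0. The 10 macrophage markers summed to 203 TPM in RUNX1mut/HMGA2-OE and 139 TPM in RUNX1mut, against 57.0 TPM in HMGA2-OE and 67.9 TPM in Control, with none at 0. The 8 B lymphoid markers summed to 63.4 TPM in RUNX1mut/HMGA2-OE and 71.8 TPM in RUNX1mut, against 15.5 TPM in HMGA2-OE and 21.7 TPM in Control. Stem and progenitor markers summed to 52.7 TPM in RUNX1mut/HMGA2-OE and 40.2 TPM in RUNX1mut, against 16.9 TPM in HMGA2-OE and 27.6 TPM in Control. Mpo, an enzyme of early granulocytes, had 228 TPM in RUNX1mut/HMGA2-OE and 235 TPM in RUNX1mut, against 53.2 TPM in HMGA2-OE and 28.4 TPM in Control. The part of these other cells in the erythroid values was not tested.

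The 5 libraries with HMGA2-OE allow the cell types to be set against each other. Averaged over both genotypes, 25 members were higher in HSC/P than in Ly6G+ cells (35.9% of 12686 genes were called higher by limma) and 5 were lower (35.7% called lower). The median difference was 1.90. Among those higher, Zfpm1 and Ank1 were under 1 TPM in both Ly6G+ libraries with HMGA2-OE. They entered the fit only through HSC/P, so being higher there was a condition of their test. Zfpm1 had the largest, 5.68 ± 0.32 (SE; limma adjusted p = 0.0027), with between 83.0 and 147 TPM in HSC/P and 0.192 and 0.0187 TPM in Ly6G+ cells. Aqp1 followed at 4.83 ± 0.21 (SE; limma adjusted p = 0.0023), then Cpox at 3.68 ± 0.11 and Gfi1b at 3.49 ± 0.30 (SE; limma adjusted p = 0.0020 and 0.0047). The members that were lower in HSC/P were Nfe2, at -2.74 ± 0.08 (SE; limma adjusted p = 0.0020), Ppox, Hbb-bs, Alas2 and Slc25a37. With 1 RUNX1mut/HMGA2-OE HSC/P replicate left out, each group has 1 library, and a p can be had only from an additive fit that counts the interaction as error. In that fit 10 of the 30 calls kept an adjusted p under 0.05 whichever replicate was left out, and these were Zfpm1, Gfi1b, Nfe2, Tfrc, Cpox, Ppox, Ank1, Aqp1, Add2 and Hemgn. Without replicate 1, 15 of the 30 calls were lost (adjusted p between 0.051 and 0.45), and without replicate 2, 20 were lost (between 0.051 and 0.39). Since the fit changed together with the library, a lost call is no sign of a smaller difference: Klf1 was at 2.84 without replicate 1 and 2.53 without replicate 2, against 2.73 with both, and Rhd at 2.16, 2.01 and 2.13.

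The RUNX1mut/HMGA2-OE Ly6G+ library weighed on this comparison. Without it the contrast is HMGA2-OE HSC/P against HMGA2-OE Ly6G+, 1 library against 1, with the spread taken from the RUNX1mut/HMGA2-OE HSC/P pair. The median was then 3.11, Hbb-bs was at 1.50 and Alas2 at 0.19, so that both were on the side of HSC/P, and Hba-a1, Hbb-bt and Slc4a1 were at 2.06, 2.01 and 2.11 (limma adjusted p = 0.017, 0.025 and 0.012, which compare these libraries and not the cell types). The scaling also weighed on it. Unscaled values moved the median of all genes to 1.49, and then 31 members were called higher and 1 lower, with 86.1% of all calls higher, against 50.1% after scaling.

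**Figure D5:**
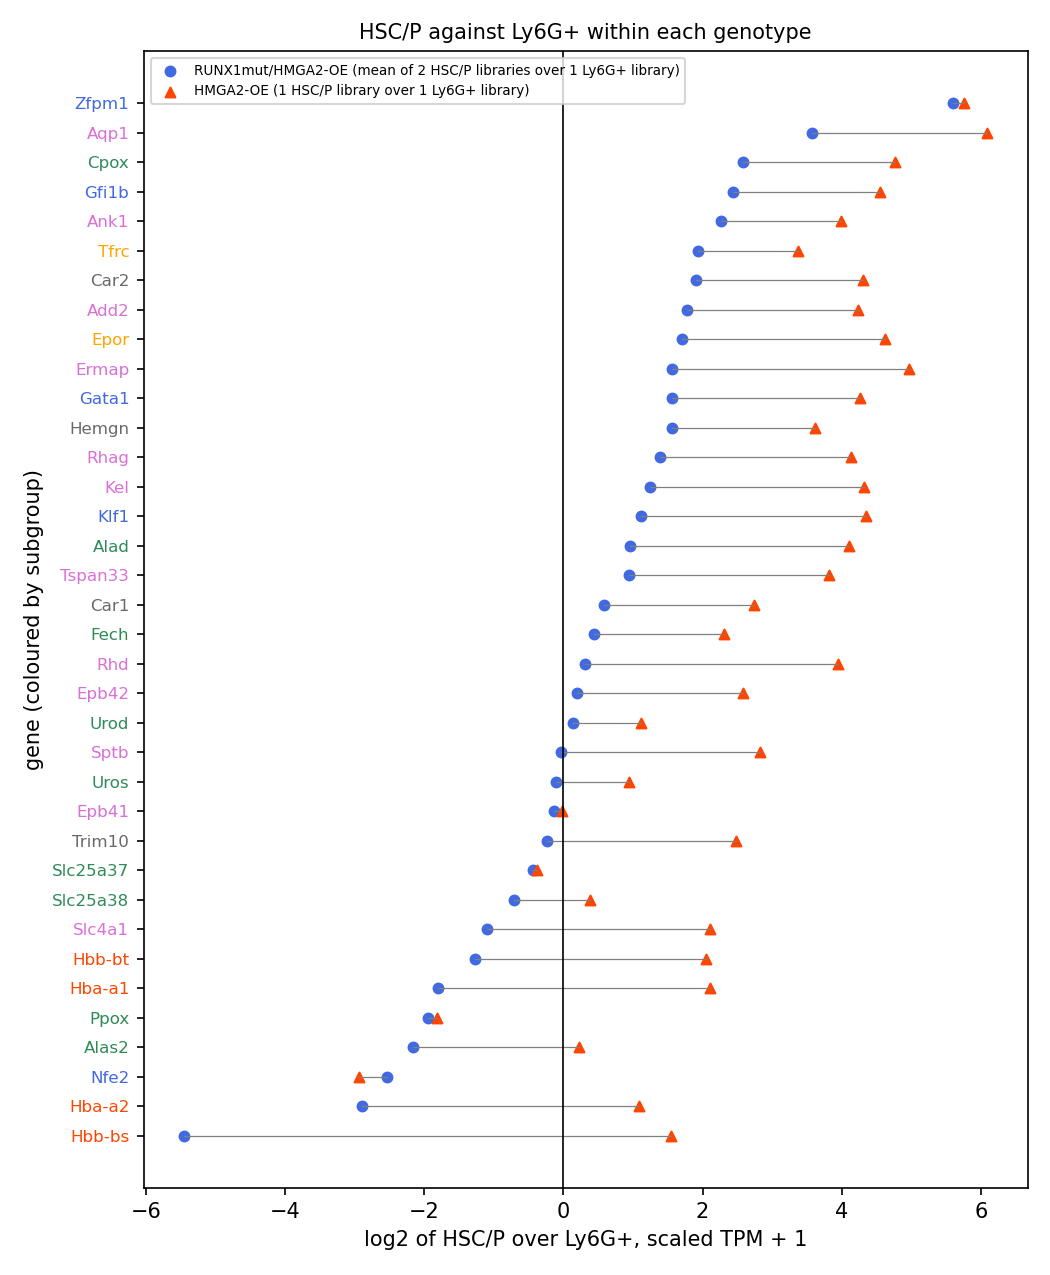
Log2 of HSC/P over Ly6G+ (scaled TPM + 1) for each member within RUNX1mut/HMGA2-OE (circles) and within HMGA2-OE (triangles), sorted by the circles and joined by a line. Most circles lie left of their triangle. Hbb-bs is at -5.46 in RUNX1mut/HMGA2-OE and at 1.55 in HMGA2-OE.

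Within RUNX1mut/HMGA2-OE, 13 and 17 of the 36 members were at least 2-fold higher in HSC/P (by replicate), against 26.6% and 27.3% of all tested genes. Within HMGA2-OE 29 were, against 27.2% of all. The interaction, which is the mutant difference in HSC/P minus that in Ly6G+ cells, was negative for 35 of 36 members with a median of -2.42, against 0.0029 over all genes, and 30 members were below -1, against 8.74% of all tested genes. None passed the test, as limma called 0 of 12686 genes (0% as background), with 2297 genes and 28 members at an unadjusted p under 0.05. For 27 of the 36 members both RUNX1mut/HMGA2-OE HSC/P libraries were below HMGA2-OE while the RUNX1mut/HMGA2-OE Ly6G+ library was above HMGA2-OE, a pattern that 19.4% of all tested genes had. Hbb-bs had the largest interaction, -7.01 ± 0.91 (SE), and Ermap the smallest p, with -3.41 ± 0.27 (SE; limma adjusted p = 0.12). The 9 others were Zfpm1, Gfi1b, Nfe2, Hbb-bt, Alas2, Ppox, Slc25a37, Car1 and Car2. Both sides of this contrast rest on the single HMGA2-OE library of each cell type.

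Between the cell types, the other genes of these pathways were called in both directions. The regulators Tal1, Lmo2, Ldb1, Lyl1, Gata2, Bcl11a, Sox6, Myb and Foxo3 were higher in HSC/P, and Spi1, Klf3, Ikzf1, E2f2 and Zbtb7a were lower. Of 24 heme and iron genes, 11 were higher (among them Abcb10, Blvra, Blvrb, Slc11a2, Steap3, Tfr2, Ireb2 and Aco1) and 7 lower (Flvcr1, Hmox1, Hmox2, Slc40a1, Fth1, Ftl1 and Bach1). Of 26 red cell and membrane genes, 10 were higher (among them Dmtn, Gypc, Icam4, Slc14a1, Piezo1, Kcnn4, Prdx2 and Cat) and 8 lower (Sptan1, Add1, Add3, Cd47, Slc2a1, Mpp1, Bnip3l and Hbq1b). Of 15 signalling genes, Stat5a, Kit and Pim1 were higher and 10 were lower (Stat5b, Lyn, Cish, Socs1, Socs3, Bcl2l1, Ptpn6, Gab2, Irs2 and Sh2b3). In Ly6G+ cells 0 of the 71 tested genes of these 4 lists passed the limma test for the RUNX1 term. At an unadjusted p under 0.05 were 12 higher and 2 lower, against 1407 of all 9820 genes in either direction. Prdx2, an antioxidant of red cells, was at 1.20 ± 0.11 (SE).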

How the data were processed

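RNA from individual C57BL/6 mice was measured in 7 libraries of 6 groups, taken from the labels. Per the submitters' processing notes, bcl2fastq, CASAVA 1.8 and kallisto were used with mm10. Of other versions, the index and the annotation nothing is stated (not given in the sources used here). Values in the deposited table are TPM, recognised as such because they are not whole numbers and the column totals are alike, so counts and depth are unknown and a count test was not used.

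Each fit kept genes reaching 1 TPM in 2 or more of its libraries. Scaling used a trimmed mean of log ratios without weights (trims 0.3 and 0.05), and log2(scaled TPM + 1) was tested two-sided with limma 3.58.1 in R 4.3.3, with a variance trend and Benjamini-Hochberg adjustment over all genes at 0.05. This scale understates fold changes of genes with low TPM. Each fit has 1 residual degree of freedom and borrows its variance from all genes. In the HSC/P fit and the fit over both cell types, that degree of freedom is the spread between the 2 RUNX1mut/HMGA2-OE HSC/P libraries. In the Ly6G+ fit no genotype has a replicate, and it is the departure from additive effects of mutation and HMGA2-OE. Standard errors and p-values in Ly6G+ cells thus measure no spread between replicates. The labels do not say that mice were littermates. Gene symbols, promoters and motifs were read with Python 3.11.15 from the reference tables, and figures drawn with matplotlib 3.10.9.

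Members and lists were chosen with earlier results of these data known. The text names every member, from each companion list the 4 genes with the highest mean TPM, the 2 largest differences in each direction in HSC/P among those reaching 10 TPM there, and those that passed a test, and Hmga2 and Runx1. Some genes that this rule picks are not reported here. Other genes were named after their values were seen. Alternatives covered the added TPM, the filter, the scaling, the variance trend, all 7 libraries in 1 fit, and libraries left out.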

Additional observations from a re-analysis of the deposited data

Results flagged for a closer look

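For 27 of the 36 members, every RUNX1mut/HMGA2-OE library of one cell type was on one side of HMGA2-OE and that of the other cell type on the opposite side, below in HSC/P and above in Ly6G+ cells. Of all 12686 tested genes, 19.4% had that pattern, and it rests on a single HMGA2-OE library of each cell type. The difference itself was tested as the interaction of mutation and cell type in limma, and none of the 27 passed (adjusted p between 0.12 and 0.79). On the log2 scale the interaction was -3.23 for Klf1 and -2.70 for Gata1. It was -2.92 for Epor and -1.44 for Tfrc. In the globins it was -3.91 for Hba-a1, -3.98 for Hba-a2 and -7.01 for Hbb-bs. Heme genes had -3.14 for Alad, -1.05 for Uros, -0.98 for Urod, -2.18 for Cpox, -1.88 for Fech and -1.10 for Slc25a38. Membrane genes had -3.20 for Slc4a1, -2.75 for Rhag, -3.64 for Rhd, -2.38 for Epb42, -0.12 for Epb41, -1.72 for Ank1, -2.87 for Sptb, -3.41 for Ermap, -2.53 for Aqp1, -2.88 for Tspan33, -2.46 for Add2 and -3.09 for Kel. Hemgn was at -2.06 and Trim10 at -2.72. Epb41 differed by less than its standard error of 0.21.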

How the results depend on the processing

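The HSC/P median stayed negative under 10 of its 11 alternatives and the interaction median under all that were run. The exception was the planned additive fit to all 7 libraries, where the mutation is averaged over cell types: the median was 0.17, with Klf1 at 0.36, Gata1 0.65, Gfi1b 0.80, Epor 0.024, Hba-a1 0.96, Hba-a2 1.14, Hbb-bs 1.94, Hbb-bt 1.41, Alas2 1.10, Alad 0.54, Cpox 0.22, Slc4a1 0.53, Rhd 0.58, Epb42 0.14, Ermap 0.55, Aqp1 0.67, Tspan33 0.28, Car2 0.98 and Trim10 0.27.

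Medians moved as follows. Adding 0.1 TPM gave 1.91 for the RUNX1 term, 2.16 between cell types and -3.10 for the interaction, and adding 5 TPM gave 0.48, 1.51 and -1.59. With 0.1 TPM added, 3 members were at least 2-fold higher in HMGA2-OE than in Control, and the share of all genes was not counted there. With no filter the RUNX1 term was 0.78 and the difference between cell types 2.18. No scaling gave 3.54 between cell types and -2.71 for the interaction, and upper-quartile scaling gave 2.36 between cell types. Over members with 1 TPM in a library without the mutation the RUNX1 term was 0.36. Without the members that have an annotated transcript of 350 to 420 bases, the difference between cell types was 2.38 and the interaction -2.70; without the RUNX1mut/HMGA2-OE Ly6G+ library, it was 3.11 between cell types. These last 3 choices were made after seeing the data. Leaving out 1 RUNX1mut/HMGA2-OE HSC/P replicate gave between 1.81 and 1.91 between cell types.

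Counts of called genes were 0 in 4 of the 5 fits and changed in some settings. The interaction called 3250 genes with no filter, including Fech and Sptb, and 1 with a filter of 5 TPM. With no scaling, 1 gene was called in HSC/P, 133 for the RUNX1 term and 61 for the HMGA2-OE term. The 133, of 9820 genes tested, included 6 of the 27 tested members: Hba-a2, Hbb-bs, Hbb-bt, Alas2, Rhd and Aqp1. Of these, Alas2, Rhd and Aqp1 were tested only through the mutant libraries. Without scaling, 20 members were at least 2-fold higher in RUNX1mut/HMGA2-OE than in RUNX1mut Ly6G+ cells, against 7 after scaling. The share of all genes was not counted there, and the scaling factors of these libraries, 1.58 and 1.02, shift genes in general. The cause was not tested.

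Single members that changed sign were these. With no scaling in HSC/P, Nfe2 was at 0.055, Alas2 0.021, Slc25a37 0.015 and Epb41 0.049; in the RUNX1 term, Nfe2 0.22, Uros 0.050, Ppox 0.39 and Slc25a37 0.62; in the HMGA2-OE term, Ppox 0.019; between cell types, Hba-a2 1.04, Alas2 0.40, Ppox 0.037, Slc25a37 1.46, Slc25a38 1.72 and Epb41 1.81; in the interaction, Zfpm1 0.038 and Nfe2 -0.69. Upper-quartile scaling gave Slc25a37 0.013 in the RUNX1 term and Slc25a37 0.093, Slc25a38 0.34 and Epb41 0.43 between cell types. With no filter, Epb41 was at -0.015 in the RUNX1 term, and Slc25a38 0.14 and Epb41 0.23 between cell types. A filter of 5 TPM gave Slc25a37 0.028 in the RUNX1 term, and adding 5 TPM gave Zfpm1 0.044 in the interaction. Without the RUNX1mut/HMGA2-OE Ly6G+ library, Hba-a2 was at 1.03, Hbb-bs 1.50, Alas2 0.19 and Slc25a38 0.33 between cell types. Leaving out 1 RUNX1mut/HMGA2-OE HSC/P replicate put Hba-a1 between -0.023 and 0.29 between cell types.

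No paired analysis was possible because replicate numbers exist only in 1 group, RUNX1mut/HMGA2-OE HSC/P, and all other groups have 1 library. Depth is unknown from TPM, and differences among members under about 1 TPM are limited by it.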
